A study of Homo sapiens with 36 samples.

Results

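Untreated HCT-116 cells that lack FBXW7 were compared with untreated wild-type (WT) HCT-116 cells by RNA-seq of polyA RNA. The HCT-116 line was derived from a colorectal carcinoma. The libraries were chosen by their titles, as 3 of FBXW7-/- cells (KO) with a control esiRNA (esiCT) and 3 of WT cells, all with an untreated state, which makes 6 of the 36 libraries of the series. An esiRNA is a pool of short interfering RNAs, and all cells had been transfected for 48 h. The WT libraries carry esiCT in their titles but esiHDAC4 in their treatment entry, so the esiRNA of WT is not settled, and KO with esiHDAC4 is therefore given beside KO with esiCT where a result turns on it. Both lines came from the same company, and nothing in the sources used here says whether KO is 1 clone or how far the lines differ outside FBXW7. A difference between KO and WT is thus a difference between 2 lines, in which the loss of FBXW7, the history of each line and the esiRNA cannot be told apart.

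FBXW7 is the substrate receptor of an SCF ubiquitin ligase, built around SKP1 and CUL1. It binds phosphorylated degrons, often primed by GSK3, and marks proteins such as MYC, cyclin E, JUN and NOTCH1 for the proteasome. It is a tumour suppressor that is often mutated in colorectal cancer. Because it acts on proteins, the mRNA of a substrate does not measure the substrate's stability.

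The 6 libraries held between 11991412 and 17999241 counts on genes, with a median of 14462229. WT replicate 3 stood apart. In it 13.8% of reads were unmapped, against 7.74% to 9.12% in the other 5 libraries, and its log2 CPM correlated with those of the other WT libraries at r = 0.81 and 0.91 across genes, against 0.95 between WT replicates 1 and 2. To a lesser degree KO replicate 3 stood apart too. It correlated with KO replicates 1 and 2 at r = 0.961 and 0.952, against 0.988 between those. The epithelial markers EPCAM and KRT8 were high in every library, at 268 to 322 and 2453 to 4087 CPM (counts scaled to the library total, without regard to gene length). The intestinal epithelial markers VIL1 and CDH17 stayed at or under 0.34 CPM in all 6. Blood and endothelial markers summed to at most 0.39 and 1.76 CPM. Among the 5 fibroblast markers, which summed to 29.0 to 42.4 CPM in KO and 31.7 to 44.7 CPM in WT, COL1A1 made up nearly the whole sum and DCN was at 0.

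FBXW7 itself (ENSG00000109670.17, chr4:152320544-152536092 of GRCh38, minus strand) did not differ at the level of its mRNA. It was measured at 15.4, 17.2 and 18.1 TMM-normalized CPM in KO and at 16.9, 23.5 and 22.8 in WT. The groups overlapped, and the log2 fold change of KO over WT was -0.32 (standard error 0.31, adjusted p = 1.00 by edgeR). The total over the gene does not show whether the transcript can be translated, so it is no check of the knockout. HDAC4, a class IIa histone deacetylase, stood at 18.4, 14.02 and 24.9 CPM in KO and at 18.8, 25.6 and 21.6 in WT (log2 fold change -0.20, standard error 0.24, adjusted p = 1.00). HDAC5 and HDAC7, of the same class, had log2 fold changes of -0.03 and 0.01 (standard errors 0.20 and 0.23), and HDAC9 was too low to be tested. In KO with esiHDAC4, HDAC4 mRNA was at 10.9 ± 3.48 CPM (SD, n = 3), against 22.01 ± 3.44 in the untreated WT libraries. The labels do not say that replicates are separate cultures, so p-values measure the spread between these libraries, which may be technical.

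Across 12353 genes, KO and WT differed in few genes and almost only downwards. In KO, 33 genes were lower and 1 was higher past both thresholds (adjusted p under 0.05, fold change above 1.5), 0.267% and 0.0081% of the genes tested (0.275% together). At an unadjusted p under 0.05 there were 577 lower and 131 higher genes, 708 of the 12353 together. Without WT replicate 3 there were 345 of 12353, and with the 6 libraries alone 268 of 11575. All 34 called genes had 3 KO libraries on 1 side of all 3 WT libraries, whereas 3.51% of all genes tested had KO below WT in this way and 2.88% above. The 34 were called on these same 6 libraries, so this separation adds no support to the calls. With the replicate number as a block, 70 genes were lower and 4 higher, and these held all 34. Of the 40 further genes, 7 were called with the block when WT replicate 3 was left out, DUSP4 and OASL among them, and 0 of the 37 that could be tested were called with the block and the 6 libraries alone. The calls rest in part on the spread shared with the other 18 libraries of the fit, since with only the 6 libraries compared EHF alone was called (adjusted p under 0.05), and in part on WT replicate 3, which was the highest WT library for 24 of the 33 lower genes and without which 20 lower genes and the higher one remained, all among the 34. Just inside the threshold lay NRP1, CYP24A1 and ARL14EPL at an adjusted p of 0.0485, and just outside it PPARG at 0.0574.

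**Figure D1:**
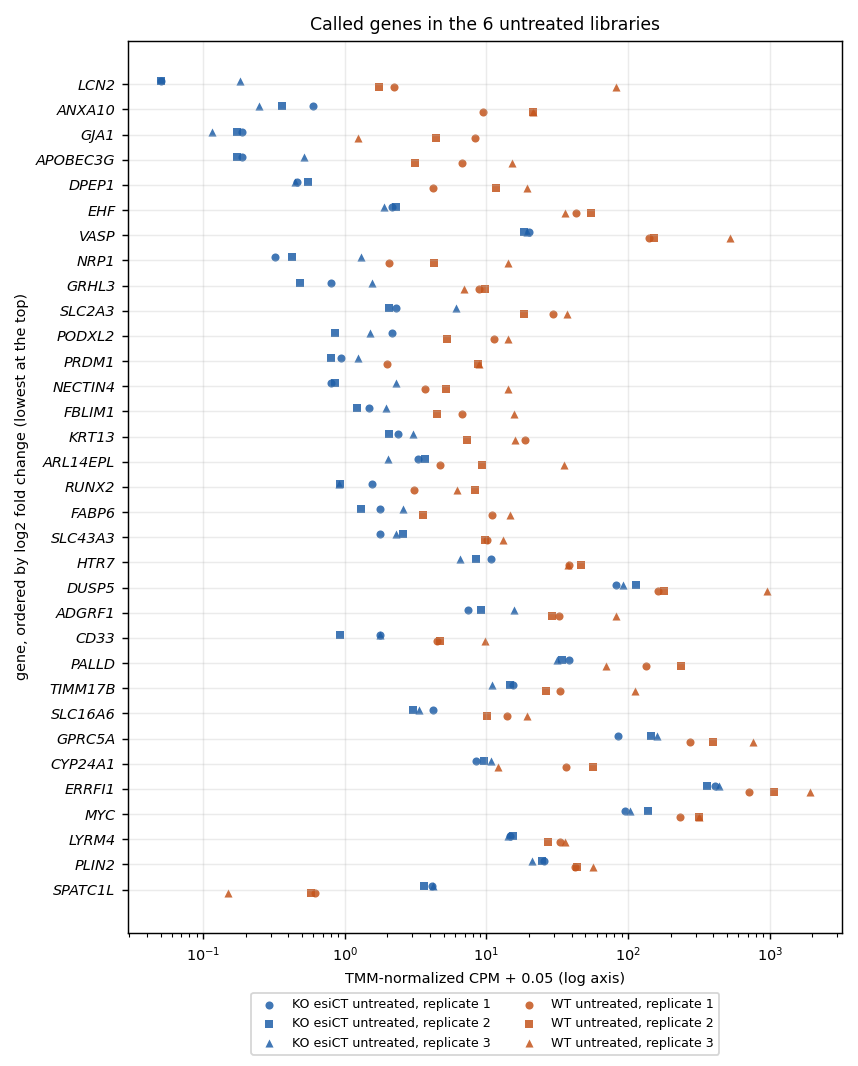
TMM-normalized CPM, with 0.05 added and on a log axis, of 33 of the 34 called genes in the 3 KO esiCT untreated (blue) and 3 WT untreated (orange) libraries, with a marker shape for each replicate number. The KO points lie left of the WT points for every gene shown except SPATC1L, where they lie right of them, and the WT triangle, replicate 3, is the highest WT value for most of the genes.

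The called genes are described here by what their products are known to do, an order chosen after the calls were known. The first are transcription factors. EHF (ENSG00000135373.13, chr11:34621093-34663288, plus strand), an ETS factor of epithelial cells, was measured at 2.12, 2.23 and 1.85 CPM in KO and at 42.8, 54.8 and 35.8 CPM in WT. Every KO library was far under every WT library, and KO held 4.66% of the WT level (log2 fold change -4.42, standard error 0.47, adjusted p = 6.2e-05). GRHL3, a grainyhead-like factor of epithelial barriers, was at 0.75, 0.43 and 1.52 CPM in KO against 8.82, 9.67 and 6.91 in WT (log2 fold change -3.23, standard error 0.43, adjusted p = 0.00049). GRHL3 (chr1:24199558-24364482, plus strand) overlaps STPG1 on the other strand, whose log2 fold change was -1.23, and counts without strand do not tell the pair apart. PRDM1, a transcriptional repressor with roles in lymphoid and epithelial cells, fell by 2.77 on the log2 scale (adjusted p = 0.0086). RUNX2, a factor known from bone and from invasive carcinoma, fell by 2.43 (adjusted p = 0.0094). These 2 were low in all 6 libraries, at 0.74 to 1.503 CPM in KO and 1.93 to 8.79 CPM in WT, and each overlaps a gene on the other strand. MYC, which drives growth and ribosome production and whose protein is an FBXW7 substrate, was the most highly expressed factor among them. It stood at 94.9, 139 and 103 CPM in KO and at 231, 317 and 315 CPM in WT, with no overlap, and KO held 38.97% of the WT level (log2 fold change -1.36, standard error 0.21, adjusted p = 0.0024). With KO esiHDAC4 in place of KO esiCT, MYC had a log2 fold change of -0.85 and missed the threshold (adjusted p = 0.0584).

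A second group acts at the cell surface. NECTIN4, an adhesion molecule that is a drug target in carcinoma, was at 0.75 to 2.24 CPM in KO and at 3.61 to 14.2 CPM in WT (log2 fold change -2.57, adjusted p = 0.0392), and missed the threshold without WT replicate 3 (adjusted p = 0.401). GJA1, the gap junction protein connexin 43, had 5 counts in all 3 KO libraries together and 198 in WT. Its counts put WT 43.8-fold above KO, with a 95% exact interval of 18.5 to 136 for counting error only. WT varied, at 8.26, 4.38 and 1.19 CPM, and GJA1 passed the count filter through WT (mean 66 counts, 1.67 in KO). The fitted log2 fold change was -5.31 (adjusted p = 0.0125 by edgeR). The call did not hold without KO replicate 1, 2 or 3 (adjusted p = 0.117, 0.12 and 0.105). NRP1, a coreceptor of semaphorins and VEGF, had a log2 fold change of -3.40 with and -2.31 without WT replicate 3 (adjusted p = 0.0485 and 0.458). GPRC5A, an orphan receptor induced by retinoic acid, was the most abundant of the surface genes in CPM, at 84.9, 146 and 160 in KO against 274, 399 and 765 in WT (log2 fold change -1.88, standard error 0.34, adjusted p = 0.0120). PODXL2, ADGRF1 and CD33 completed the group with log2 fold changes of -2.80, -2.16 and -2.11. For GPRC5A and ADGRF1 the call did not hold without WT replicate 3 (adjusted p = 0.104 and 0.331), and for PODXL2 and CD33 it did (0.0072 and 0.0417).

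Genes of the actin cytoskeleton, with a keratin beside them, formed a further group. VASP (ENSG00000125753.15, chr19:45506579-45526989, plus strand), which promotes the growth of actin filaments at the leading edge, was at 19.9, 18.5 and 19.3 CPM in KO and at 140, 152 and 524 CPM in WT. KO held 7.08% of the WT level, with no overlap (log2 fold change -3.82, standard error 0.41, adjusted p = 6.2e-05), and without WT replicate 3 the log2 fold change was -2.92. PALLD (palladin), which bundles actin, was at 38.1, 34.1 and 31.4 CPM in KO and at 133, 236 and 70.1 CPM in WT (log2 fold change -2.08, standard error 0.32, adjusted p = 0.0021). Here WT replicate 3 was the lowest WT library, and PALLD overlaps DDX60L and CBR4 on the other strand, which were not called. FBLIM1, a partner of filamin at cell contacts, fell by 2.54 on the log2 scale (adjusted p = 0.0021). KRT13, a keratin of stratified epithelia whose sequence is shared in part with other type I keratins, was at 2.32, 1.99 and 2.97 CPM in KO and at 18.7, 7.29 and 15.8 CPM in WT (log2 fold change -2.51, adjusted p = 0.0021).

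Transport and metabolism made up the next group. SLC2A3 (GLUT3), a glucose transporter of high affinity, was at 2.25, 1.99 and 6.07 CPM in KO and at 29.4, 18.3 and 36.7 CPM in WT (log2 fold change -3.03, standard error 0.52, adjusted p = 0.0079). With KO esiHDAC4 its log2 fold change was -1.66 (adjusted p = 0.119). SLC43A3, a transporter of purine bases and fatty acids, and SLC16A6, a monocarboxylate transporter, fell by 2.32 and 2.05 on the log2 scale. FABP6, the ileal bile acid binding protein, DPEP1, a membrane dipeptidase, and PLIN2, which coats lipid droplets, fell by 2.39, 4.72 and 0.995. DPEP1 was at 0.41, 0.50 and 0.40 CPM in KO and at 4.17, 11.7 and 19.2 CPM in WT. CYP24A1, which inactivates vitamin D, varied among WT libraries. It stood at 36.2, 56.9 and 11.95 CPM in WT against 8.4 to 10.7 in KO, and with KO esiHDAC4, at 18.0035 to 37.4 CPM, the log2 fold change was -0.45 (adjusted p = 0.695). The mitochondrial genes TIMM17B, part of an import channel, and LYRM4, part of the iron-sulphur cluster machinery, fell by 2.05 and 1.12. LYRM4 varied little within groups, at 14.2 to 15.3 CPM in KO and 27.0 to 36.0 CPM in WT, and TIMM17B overlaps PQBP1 on the other strand. SLC16A6, FABP6, PLIN2, TIMM17B and LYRM4 lost the call without WT replicate 3 (adjusted p = 0.104, 0.128, 0.104, 0.315 and 0.128).

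DUSP5, an ERK phosphatase, and ERRFI1, an inhibitor of EGFR, are both induced by ERK signalling. DUSP5 was at 82.5, 114 and 92.5 CPM in KO and at 164, 181 and 964 CPM in WT (log2 fold change -2.17, standard error 0.44, adjusted p = 0.0337), and its log2 fold change without WT replicate 3 was -0.83 (adjusted p = 0.188). ERRFI1 was at 414, 363 and 435 CPM in KO and at 718, 1076 and 1922 CPM in WT (log2 fold change -1.62, adjusted p = 0.0173; without WT replicate 3 -1.15 and 0.163). Both differences were smaller without that library. With number 3 left out of every group ERRFI1 was called and DUSP5 was not. Neither call held without KO replicate 1, 2 or 3.

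The remaining genes share no role. ANXA10, an annexin of gastric epithelium, was at 0.55, 0.31 and 0.20 CPM in KO and at 9.46, 21.2 and 21.4 CPM in WT (log2 fold change -5.60, standard error 0.65, adjusted p = 0.00014). LCN2, a secreted protein that binds siderophores, had 2 counts in the 3 KO libraries together against 893 in WT, of which 834 were in replicate 3. By counts WT was 494-fold above KO (95% exact interval 136 to 4084, counting error only), and the fitted log2 fold change moved from -9.10 to -5.21 without that replicate. APOBEC3G, a cytidine deaminase of antiviral defence with close paralogs beside it, was at 0.14, 0.12 and 0.46 CPM in KO and at 6.66, 3.06 and 15.1 CPM in WT (log2 fold change -5.05, adjusted p = 0.00049). HTR7, a serotonin receptor, was even in both groups, at 10.7, 8.44 and 6.46 CPM in KO and 38.2, 46.4 and 37.3 CPM in WT (log2 fold change -2.25, standard error 0.29, adjusted p = 0.00041). ARL14EPL fell by 2.46 with WT replicate 3 and had a log2 fold change of -1.24 without it (adjusted p = 0.0485 and 0.710). Its call did not hold without KO replicate 1, 2 or 3 either.

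SPATC1L (ENSG00000160284.15, chr21:46161148-46184476, minus strand), named for its likeness to speriolin, was the gene called higher in KO. It was at 4.10, 3.60 and 4.16 CPM in KO and at 0.56, 0.53 and 0.10 CPM in WT (log2 fold change 3.21, standard error 0.44, adjusted p = 0.00063). In counts these are 60, 58 and 63 reads against 7, 10 and 1, a ratio of 9.09 with an exact 95% interval of 5.59 to 15.7. The next 9 genes by p-value in this direction, SH3TC2, SERPINA5, DES, FGFBP1, ODAM, RIOX1, SGCE, VSNL1 and the pseudogene ZNF702P, had log2 fold changes of 0.70 to 4.43, KO above WT without overlap, and adjusted p of 0.0944 to 0.336. SERPINA5, a serine protease inhibitor, stood at 6.97, 5.46 and 11.9 CPM in KO and 3.93, 1.74 and 1.88 CPM in WT, DES, the muscle intermediate filament desmin, at 5.67, 6.64 and 6.53 against 2.97, 2.17 and 2.96. With the replicate block SERPINA5, DES and FGFBP1, a carrier of fibroblast growth factors, passed the threshold (adjusted p = 0.0118, 0.0161 and 0.0393), but not with the block and without WT replicate 3 (0.0891, 0.106 and 0.172) or with the block and the 6 libraries alone (0.658, 0.824 and 0.61).

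The promoters of the genes called lower are described next. Their shared direction follows from how these genes were chosen, and whether they vary together was not tested. RefSeq promoters of GRCh38.p14, from 250 bases before a gene's start to 50 after it, were at hand for 21 of the 33 lower genes, some with several starts, and for 9474 genes tested. Searched on both strands were TGANTCA of AP-1 factors, CACGTG of MYC and other E-box factors, AACCNGTT of grainyhead-like factors, CCGGAAGT of ETS factors, GGGCGG of KLF and SP factors and GGAATGT of TEAD factors. Each motif was searched on its own, and matches of different motifs were allowed to overlap. TGANTCA occurred in 5 of the 21 genes (23.8%), against 6.87% of the genes tested and 7.71% of all 35116 promoters. GGAATGT occurred in 3 (14.3% against 3.21% and 3.46%), and AACCNGTT and CACGTG in 1 each (4.76% each, against 1.87% and 12.8% of the genes tested and 1.73% and 7.26% of all promoters). GGGCGG occurred in 12 (57.1% against 79.4% and 45.0%) and CCGGAAGT in 0, against 10.3% and 4.14%. The promoters of the lower genes held a median of 15 CpG, against 29 over the genes tested. These are descriptions of 21 promoters with no test. The stretches around each TGANTCA match, in capitals, with 30 bases on either side where the promoter reaches that far, were:
GJA1, chr6:121435568-121435634, plus strand: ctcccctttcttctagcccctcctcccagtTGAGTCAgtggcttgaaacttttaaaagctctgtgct
LCN2, chr9:128149371-128149437, plus strand: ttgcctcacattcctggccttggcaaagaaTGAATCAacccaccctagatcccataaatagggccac
PALLD, chr4:168832013-168832079, plus strand: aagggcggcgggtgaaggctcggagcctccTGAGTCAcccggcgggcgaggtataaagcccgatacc
PRDM1, chr6:106098869-106098935, plus strand: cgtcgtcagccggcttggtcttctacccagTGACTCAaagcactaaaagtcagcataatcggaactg
RUNX2, chr6:45328080-45328123, plus strand: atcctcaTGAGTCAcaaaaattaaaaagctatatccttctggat

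In GJA1, LCN2, PALLD and PRDM1 the first base of the match lay 48, 52, 52 and 42 bases before the start of transcription, and in RUNX2 it lay 243 bases before it. Whether GRHL3 or MYC acts on any of these promoters was not tested. The grainyhead-like match was in the promoter of FABP6 and the E-box in that of PLIN2, with the matches in capitals:
FABP6, chr5:160229265-160229332, plus strand: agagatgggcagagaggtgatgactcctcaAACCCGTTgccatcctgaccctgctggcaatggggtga
PLIN2, chr9:19127526-19127591, minus strand: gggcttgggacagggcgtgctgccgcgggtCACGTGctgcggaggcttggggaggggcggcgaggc

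EHF and VASP, the genes with the smallest p-values, held none of the 6 motifs in any promoter listed for them, and the first listed for each is printed whole for that reason:
EHF, chr11:34624007-34624306, plus strand: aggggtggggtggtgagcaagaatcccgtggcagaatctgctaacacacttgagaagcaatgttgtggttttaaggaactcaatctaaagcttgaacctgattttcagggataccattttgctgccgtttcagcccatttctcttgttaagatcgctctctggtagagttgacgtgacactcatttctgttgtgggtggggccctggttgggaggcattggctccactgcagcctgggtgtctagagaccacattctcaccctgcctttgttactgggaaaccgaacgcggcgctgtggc
VASP, chr19:45507229-45507528, plus strand: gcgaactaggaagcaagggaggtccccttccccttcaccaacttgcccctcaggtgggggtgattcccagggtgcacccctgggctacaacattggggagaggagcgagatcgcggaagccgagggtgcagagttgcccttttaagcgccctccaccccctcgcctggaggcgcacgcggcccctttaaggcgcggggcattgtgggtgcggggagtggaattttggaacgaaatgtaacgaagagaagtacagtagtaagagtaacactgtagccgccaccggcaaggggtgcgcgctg

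The same lines were also measured after oxaliplatin (OXPT), a platinum drug that crosslinks DNA, at 50 µM for 24 h, in 3 KO esiCT and 3 WT libraries that share no library with the untreated comparison. KO replicate 3 under OXPT had 22.3% of reads unmapped, against 9.5% and 9.7% in KO replicates 1 and 2, and the fewest genes detected of the 24 grouped libraries. In WT under OXPT replicate 3 had 11.9% unmapped, against 9.9% and 9.1%. The OXPT contrast was not refitted without these libraries. All 33 genes that were lower in untreated KO had a negative log2 fold change under OXPT as well, as had 44.3% of the genes tested. In 30 of them KO lay below WT without overlap (4.1% of the genes tested), in 32 the unadjusted p was under 0.05 (2.81%), and 13 were called lower (0.121%). Under OXPT 16 genes were called in all (0.13%). SPATC1L was called higher, without overlap (2.28% of the genes tested had KO above WT in this way), at 1.86, 1.59 and 4.76 CPM in KO against 0.38, 0.27 and 0.29 in WT (log2 fold change 3.03, adjusted p = 0.0029; 0.0081% of the genes tested were called higher). The 14 genes called in both states included ANXA10, APOBEC3G, EHF, DPEP1, VASP, PODXL2, SLC2A3, FABP6, KRT13, SLC43A3, HTR7, MYC and SPATC1L. Under OXPT, MSX2, a homeodomain factor, was called as well, with a log2 fold change of -1.57 against -1.12 in untreated cells.

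The median log2 fold change of the 33 genes was -1.78 under OXPT and -2.46 in untreated cells. Because these genes were chosen on the untreated contrast, a smaller value in another contrast is no sign of a change. The test of the change in the difference, an interaction term in edgeR, called 0 of 12353 genes, with 201 at an unadjusted p under 0.05, so a change of size was not shown for any of them. GRHL3 came nearest, with an interaction of -2.08 on the log2 scale (unadjusted p = 0.0012, adjusted p = 1.00): its level in KO was 10.2, 8.82 and 5.83 CPM under OXPT, against 15.8, 25.1 and 14.5 in WT. GPRC5A, DUSP5, PRDM1 and ERRFI1 had interactions of -1.08, -1.52, -1.57 and -0.98 (unadjusted p = 0.0311, 0.0199, 0.0241 and 0.0315). EHF, VASP and ANXA10 had log2 fold changes of -4.12, -3.06 and -5.55 under OXPT, and interactions of -0.31, -0.77 and -0.06 (unadjusted p = 0.621, 0.160 and 0.995).

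**Figure D2:**
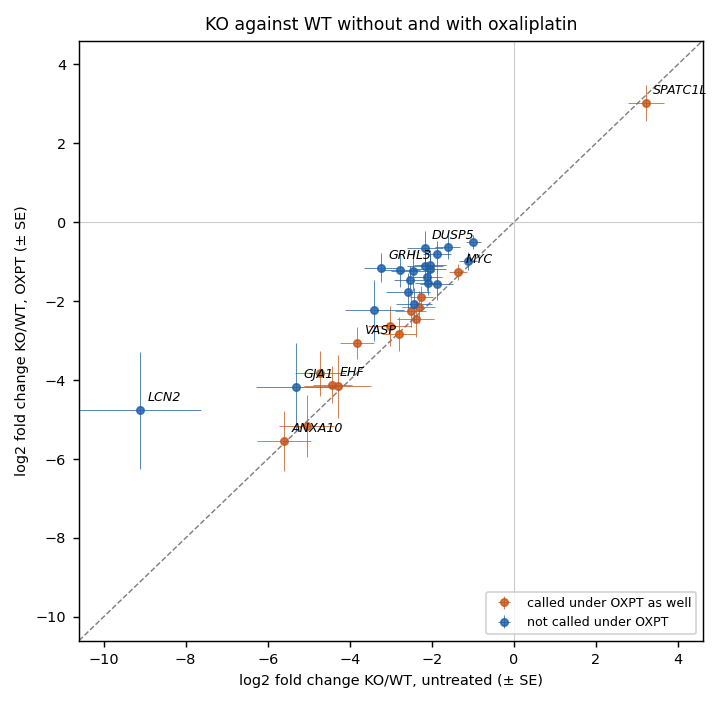
Log2 fold change of KO over WT without OXPT (horizontal) and with OXPT (vertical) for the 34 called genes, with standard errors and a dashed line of equal values. All 33 lower genes lie under 0 on both axes, and SPATC1L lies near 3 on both.

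KO cells with esiHDAC4 or with #11, a degrader of class IIa HDACs, give a further view of the KO line, although they share its origin and the first is set against the same WT libraries. For 16 of the 33 genes all 18 KO libraries, of any treatment, lay below all 6 WT libraries, as for 0.162% of the genes tested. The genes had been called on 6 of these 24 libraries, which fixes part of the separation. VASP ranged from 12.2 to 41.4 CPM in KO and from 140 to 524 in WT, EHF from 1.19 to 6.39 and 9.72 to 54.8, and MYC from 94.9 to 226 and 231 to 387. SPATC1L ranged from 1.59 to 5.86 CPM in KO and from 0.10 to 0.56 in WT. Other genes did not keep apart. In untreated KO cells with #11, ADGRF1 stood at 35.4, 29.6 and 39.5 CPM, within the range of untreated WT, and RUNX2 at 5.70, 4.62 and 3.01, of which only the last lay under the lowest untreated WT value of 3.05. With KO esiHDAC4 against the WT libraries, 98 genes were lower and 8 higher, including 31 of the 34, and MYC, SLC2A3 and CYP24A1 were not among them.

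**Figure D3:**
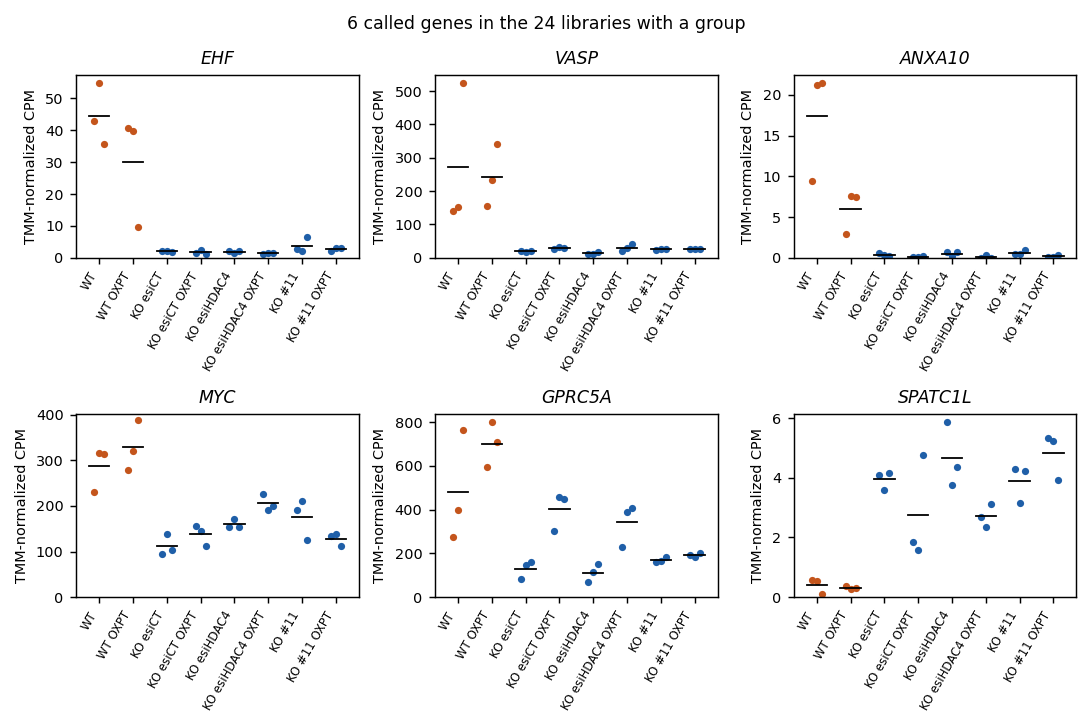
TMM-normalized CPM, on axes that start at 0, of EHF, VASP, ANXA10, MYC, GPRC5A and SPATC1L in 8 groups of 3 libraries, WT in orange and KO in blue, with black bars for means. The KO groups stay under the WT groups for the first 4 genes and above them for SPATC1L, while for GPRC5A the KO groups with esiCT or esiHDAC4 under OXPT reach the level of untreated WT.

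Gene lists written from general knowledge show which pathways held the called genes. Beside each list stands the median log2 fold change of its tested genes, to be read against -0.03 over all genes tested. Counts of called members are to be read against 0.267% called lower and 0.0081% called higher over all genes tested. With the replicate block these were 70 and 4 of 12353 genes. Of 24 tested FBXW7 substrates, MYC was lower and 0 were higher, and the median was -0.15. KLF5, a factor of intestinal crypts, had a log2 fold change of -1.03 (adjusted p = 0.0944), CEBPD -1.30 and JUN -1.55. The 21 genes of the SCF ligase and its control had 0 calls and a median of -0.01, with SKP1 at 0.63 and FBXW4 at -0.69. The 13 class IIa HDAC and MEF2 genes had 0 calls and a median of -0.29, and their lowest member was KLF2, at -1.11 (adjusted p = 0.725). In 30 nucleolar MYC targets 0 were called and the median was -0.11, with RRP12 at -0.98 and ODC1 at -0.41. The 18 Notch genes had 0 calls and a median of -0.06, with HES4 at -0.98 and HEYL at 0.39, and of 16 Wnt targets MYC alone was called, with the feedback inhibitors NOTUM and NKD1 at 0.88 and 0.55 (median 0.17).

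Of 11 tested genes of the intestinal lineage EHF was called, and the median was -0.90. HNF4A, a factor of the enterocyte, stood at 5.12, 6.14 and 6.53 CPM in KO and at 8.02, 10.4 and 14.8 in WT (log2 fold change -0.90, adjusted p = 0.376). With the replicate block KLF4 and ELF3, further epithelial factors, were called as well. The 24 epithelial and mesenchymal genes had 0 calls and a median of -0.57, with ELF3 called under the block, and the epithelial KRT80 and CDH1 had log2 fold changes of -3.205 and -0.59. Of 32 genes of glycolysis SLC2A3 was lower and the median was 0.03. Of 23 EGFR ligands and ERK feedback genes DUSP5 and ERRFI1 were lower (median -0.46), of 24 AP-1 and immediate early genes MYC (median -1.01). With the block DUSP4 was called in the first, and KLF4 and JUNB in the second.

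WT replicate 3 set the level of several list medians. Without it the median of 23 genes of the integrated stress response, with 0 calls, went from -0.75 to 0.03, and that of 15 NF-kB targets, also with 0 calls, from -0.995 to 0.03. DDIT3, a factor of stress-induced apoptosis, shows the pattern in single values, at 15.9, 11.0 and 7.92 CPM in KO and 11.6, 9.35 and 219 CPM in WT, as does the chemokine CXCL8, at 1.02, 0.68 and 2.18 in KO and 1.28, 2.69 and 33.4 in WT. The EGFR and ERK list went from -0.46 to 0.02 and the AP-1 list from -1.01 to -0.37. The 28 genes of cholesterol synthesis, with 0 calls, had a median of 0.50 with and 0.14 without it. The 31 p53 targets (0 calls) went from -0.27 to -0.14, with GDF15 at 202, 113 and 327 CPM in KO and 280, 152 and 2994 in WT. The intestinal and the epithelial and mesenchymal lists went to -0.53 and -0.29.

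**Figure D4:**
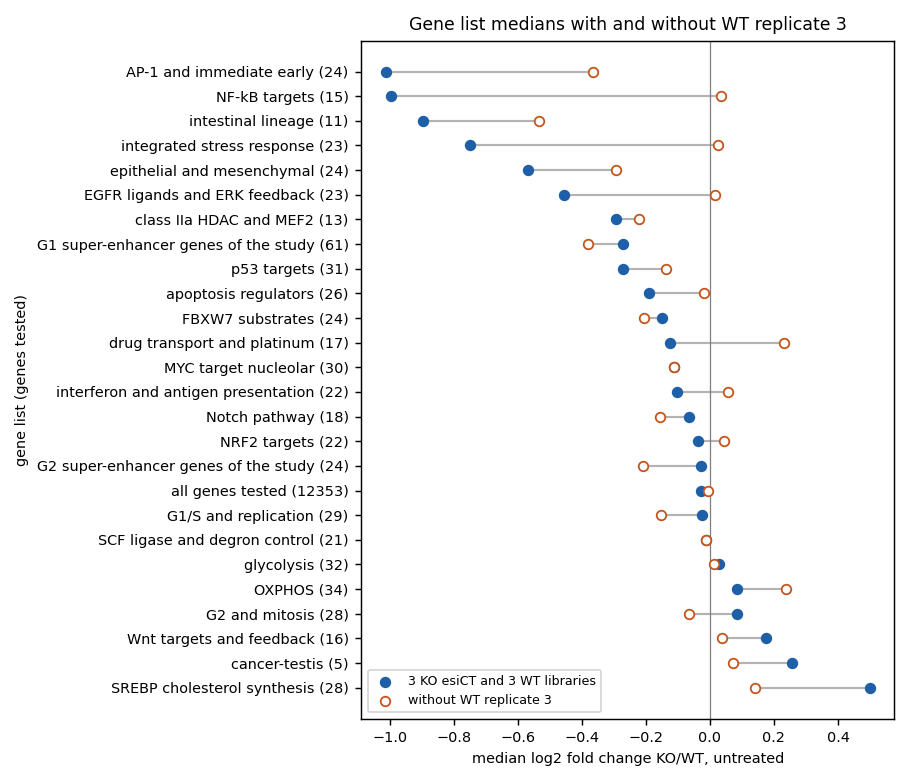
Median log2 fold change of KO over WT in untreated cells for each gene list, with the number of genes tested, from all 6 libraries (filled) and without WT replicate 3 (open). The open points of the stress response, NF-kB and EGFR lists lie near 0. Those of the AP-1 list, the intestinal list and the epithelial and mesenchymal list stay below 0.

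The other lists had 0 calls, apart from ANXA10. Medians were 0.08 for 34 OXPHOS genes, -0.03 for 29 genes of G1/S and replication, 0.09 for 28 of G2 and mitosis, -0.04 for 22 NRF2 targets and -0.10 for 22 genes of interferon and antigen presentation. Without WT replicate 3 these became 0.24, -0.15, -0.07, 0.04 and 0.06, so that all but the OXPHOS and G1/S medians turned sign. They were 0.26 for 5 cancer-testis genes, -0.12 for 17 genes of drug transport and platinum and -0.19 for 26 apoptosis regulators, and 0.07, 0.23 and -0.02 without that library. In single genes, NDUFB5 of complex I had a log2 fold change of 0.47, CDC6 of origin licensing -0.64, UBE2C of mitotic exit -0.40 and the bile transporter ABCC2 -1.12. OASL, an interferon-induced gene, was at 3.62, 4.16 and 5.87 CPM in KO and 14.3, 7.66 and 28.5 CPM in WT (log2 fold change -1.88, adjusted p = 0.164), and was called with the block. BBC3 and BIK, which encode pro-apoptotic BH3-only proteins, had -1.18 and -1.33, with the highest values in WT replicate 3, at 120 and 191 CPM. Genes near super-enhancers that the study derived from its own chromatin data of these lines are no independent lists. In the first of them, G1, ANXA10 was lower among 61 tested (median -0.27, and -0.38 without WT replicate 3), with ZFP36L1 and HS3ST1 at -1.09 and -0.86 (adjusted p = 0.0680 and 0.0742), and with the block ZFP36L1, HS3ST1 and ELF3 were called as well. In the second, G2, 0 of 24 were called and the median was -0.03, and -0.21 without WT replicate 3.

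The called genes were spread over the genome. Chromosome 1 held 5 of 1285 genes tested, chromosome 6 held 5 of 629 and chromosome 10 held 3 of 488. Every other chromosome held at most 2. Over all genes tested 0.275% were called. The median log2 fold change of the autosomes and X lay between -0.08, on chromosome 20, and 0.02, on chromosome 13, and in 1152 windows of 40 neighbouring genes it ranged from -0.22 to 0.15.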

How the data were processed

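PolyA RNA of HCT-116 cells was sequenced, and the authors deposited, per library, raw read counts per gene. Per the submitters' processing notes reads were trimmed with Trimmomatic 0.39 and aligned with STAR 2.7.11a to hg38. No source used here gives the annotation release. Each file lists 62757 genes with a count column without strand and a column for each strand. The strand columns were nearly equal (reverse over forward 1.00 to 1.01 in the 6 libraries), and the reverse column left 39.6% to 43.7% of reads on no gene, so the column without strand was used in place of the reverse one, which became an alternative. There 3.44% to 4.76% of reads lay on no gene and 10.7% to 11.9% were ambiguous, and both stayed out of library sizes.

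Libraries were grouped by their labels into 8 groups of 3 (24 libraries), and 12 libraries whose labels did not give a group went into no comparison. Chromosome Y genes were left out. Genes with a mean of at least 64 counts in at least 1 group were tested with edgeR 4.0.16 in R 4.3.3 (TMM scaling, quasi-likelihood F test, 1 coefficient per group, Benjamini-Hochberg adjustment). A gene was called if its adjusted p lay under 0.05 and its fold change above 1.5. Standard errors were taken as the log2 fold change divided by the square root of F. Alternatives were DESeq2 1.42.0, RLE scaling, other filters, the 6 libraries alone, a replicate block, and each replicate left out. Deviations from group means of same-numbered KO and WT libraries correlated at r = 0.11, 0.47 and 0.45, all above 0.1, while KO 1 and WT 2 correlated at 0.33 and the other unlike-numbered pairs at 0.0042 or below. By the preset threshold of 0.1 for every same-numbered pair, the numbers were read as pairing the libraries, although KO 1 correlated more with WT 2 than with WT 1. The main fit did not use this pairing. The replicate block, which did, gave 74 calls that held all 34 of the main fit. The rule named FBXW7, the class IIa HDACs, the 15 called genes of lowest log2 fold change, the 10 higher genes of smallest p and, per list, its called members and the 2 of smallest p. The other 18 lower genes and further list members were named after their values were seen. The comparison and the lists were chosen with earlier results of these data known. The fits were tested on simulated data. Intervals on counts cover counting error only. Results of some genes are not reported here.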

Additional observations from a re-analysis of the deposited data

How the results depend on the processing

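Every called gene that an alternative tested kept its direction there, but the number of calls depended on the setting. Against 34 calls (33 lower, 1 higher), reverse-strand counts gave 23 (23 lower, 0 higher), DESeq2 117 (111 lower, 6 higher), no count filter 312 (298 lower, 14 higher), at least 64 counts in every group 4 (4 lower, 0 higher), and the 6 libraries alone 1 lower and 0 higher, with 268 genes at an unadjusted p under 0.05. Of the 34 called genes, only 11 could be tested with at least 64 counts in every group, 28 with reverse-strand counts and 33 with the 6 libraries alone. The main filter let a gene that was low in KO pass through its counts in another group. The replicate block gave 74 (70 lower, 4 higher), and 11 (11 lower, 0 higher) with the 6 libraries alone. KO esiHDAC4 as the KO group gave 106 (98 lower, 8 higher). Leaving out 1 replicate gave 13 to 87 calls (12 to 85 lower, 1 to 4 higher), from 15, 13 and 25 without KO replicates 1, 2 and 3 to 85, 87 and 21 without WT replicates 1, 2 and 3. Added after seeing the data, leaving number 3 out of every group gave 53 (50 lower, 3 higher), and the block without WT replicate 3 gave 36 (35 lower, 1 higher). Under OXPT, 16 calls became 0 with the 6 libraries alone (184 at an unadjusted p under 0.05; DESeq2 30, reverse-strand counts 9, block 21). The cause was not tested.

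Among the 84 single genes followed in every setting, 12 changed sign, none of them called. Other list members, which were not followed singly, changed sign as well: without WT replicate 3 the negative members went from 23 to 10 in the stress response list and from 15 to 7 in the NF-kB list. FBXW7 had a log2 fold change of 0.1634 with KO esiHDAC4. HDAC5 had 0.0682 with KO esiHDAC4, 0.0613 and 0.0845 without KO replicates 1 and 2, and 0.0476 and 0.0824 without WT replicates 1 and 2 (lowest with a replicate left out -0.2337). HDAC7 had -0.0079 with RLE scaling, -0.0067 with DESeq2, -0.0706 with KO esiHDAC4, -0.0059 without KO replicate 3, and -0.0079 and -0.095 without WT replicates 1 and 2 (highest 0.1362). Without WT replicate 3, FBXW4 had 0.0155, HES4 0.1589, UBE2C 0.1382, DDIT3 0.1532, PLAU 0.1291 and BIK 0.0566, and their lowest values with another replicate left out were -1.0464, -1.381, -0.6345, -3.3024, -2.6996 and -1.7814. Without number 3 in any group, ODC1 had 0.0843, HES4 0.1525, SESN2 0.0392, UBE2C 0.1476, DDIT3 0.3669 and MAGEB2 -0.0068. With the block and without WT replicate 3, HES4 had 0.027, UBE2C 0.1405 and DDIT3 0.0738.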

Other observations

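With the replicate number as a block, 40 genes were called in addition, a set described here after its values were seen. With the block and without WT replicate 3, 7 of the 40 were called, and with the block and the 6 libraries alone 0 of the 37 that could be tested. KRT7 and KRT16, keratins of simple and stressed epithelia, had blocked log2 fold changes of KO over WT of -4.16 and -2.79 (adjusted p = 0.0145 and 0.0275). COL17A1 and LAMB3, parts of the hemidesmosome and its basement membrane anchor, had -2.65 and -2.70 (adjusted p = 0.00522 and 0.0455). S100A14, a calcium-binding protein of epithelia, and CAV1, the coat protein of caveolae, had -2.05 and -0.99. Of these 6 genes S100A14 alone was called with the block and without WT replicate 3 (log2 fold change -1.26, adjusted p = 0.00333).

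The 12 WT libraries that the labels put in no group were set beside the untreated KO libraries as values alone, with TMM scaling over these and the 24 grouped libraries together. For 28 of the 33 genes lower in KO all 12 lay above the 3 KO libraries, and for 31 genes at least 10 did, against 2.51% and 11.3% of all genes tested. The 33 genes had been chosen for low values in those same KO libraries. EHF ranged from 8.58 to 75.5 CPM in the 12 (median 25.6), VASP from 123 to 500 (median 247) and MYC from 238 to 564 (median 355). SPATC1L ranged from 0.23 to 0.85 CPM (median 0.61), below the KO libraries in all 12.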
